A study of Mus musculus with 18 samples.

Results

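Germinal vesicle (GV) oocytes from 12-month-old mice given nicotinamide mononucleotide (NMN) were compared with GV oocytes from untreated young mice. The oocytes were chosen by the titles of their libraries, and 5 distinct oocytes of the 16 usable ones in the series met that choice: 3 from treated 12-month mice and 2 from young mice. The treated mice drank water with 2 g/L NMN for 4 weeks, the young mice were 4 weeks old and drank plain water, and all were of strain C57BL/6JAusb. Each library was made from 1 oocyte: the cell was lysed, its nucleus was spun down, and RNA was taken from the supernatant, so the libraries hold mostly cytoplasmic RNA. The labels name no animals, so oocytes of a group may share a mouse and each group counts as 1 sample. No test between the groups could therefore be made, and differences are described by a fixed rule of size. The treated and young mice differ in both age and treatment, and for these groups the parts of age and of NMN cannot be told apart. For that reason the values of 2 oocytes from untreated 12-month mice stand beside the main results.

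A GV oocyte is a fully or nearly fully grown egg cell arrested in the first meiotic prophase, with its nucleus still visible. It stops most transcription late in growth and lives on stored maternal mRNA, which it translates and degrades in steps as meiosis resumes. NMN is a precursor of nicotinamide adenine dinucleotide (NAD), the electron carrier of glycolysis, the citric acid cycle and fatty acid oxidation and the substrate of sirtuin deacylases and poly-ADP-ribose polymerases (PARPs). NAD is made from nicotinamide by Nampt and the Nmnat enzymes, and from tryptophan by the kynurenine route.

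The 5 libraries held 2756181 to 4690580 expected counts. The library titled as the first young oocyte and a young library titled as batch 2 hold the same value for all 47069 genes, and were counted once, as young 1. The titles of NMN 2-1 and young 2-2 name batch 2. Those of NMN 1, NMN 2 and an untreated 12-month oocyte name no batch, and these oocytes are called the first batch here. Young 1 carries a title without a batch and another that names batch 2. The share of its detected genes with a fractional expected count was 14.5%. That lies with the batch 2 libraries of this comparison (13.1% and 14.2%) and below NMN 1 and NMN 2 (21.8% and 20.9%). Batch and group therefore can be told apart only through NMN 2-1. NMN 1 and NMN 2 had 13253 and 13550 genes with a count, against 9883 in NMN 2-1 and 10079 and 8825 in the young oocytes. Thinned to the depth of NMN 2-1, NMN 1 and NMN 2 had 12802 and 13266, NMN 2-1 and young 1 were close, at 9883 and 9823, and young 2-2 had 8625. Across 12161 genes the Spearman correlation was 0.899 between NMN 1 and NMN 2, 0.917 between NMN 2 and the untreated 12-month oocyte of the first batch, and 0.739 between the young oocytes. NMN 2-1 was at 0.802 with the untreated 12-month oocyte of batch 2, 0.784 with NMN 2, 0.782 with the other untreated 12-month oocyte, 0.773 with young 1, 0.754 with NMN 1 and 0.746 with young 2-2. All 12 markers that define an oocyte had counts in these libraries, their summed level was 25664 to 29764 scaled CPM (counts relative to the scaled library total) in the NMN oocytes and 15623 and 20646 in the young, and erythroid markers had no count.

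Of the 12161 genes that passed the filter on low counts, 1723 (14.2%) were higher and 792 (6.51%) were lower in the NMN oocytes than in the young. Counts of list members below are to be read beside these shares. A gene was counted where its mean scaled CPM, after adding 1, differed by at least 2-fold and no NMN oocyte overlapped a young one; below, such a gene is said to have met the rule. That such a gene lies on 1 side in every oocyte is part of the rule and not a further result. The median log2 ratio of all genes was 0.26. Of the genes named below, Dusp1, Gapdh, Kat8, Khdc3, Lig3, Mff, Sirt3, Sirt7 and Afmid share exon bases with another gene that passed the filter, so some of their reads may belong to it. By the stricter demand that every NMN oocyte lie past 2-fold of every young oocyte, 747 genes (6.14%) were higher and 202 (1.66%) lower. The NMN 2-1 oocyte alone was higher by the rule in 2083 genes (17.1%) and lower in 1639 (13.5%). Its median log2 ratio was 0. Here the 2-fold is from the young mean, not from each young oocyte. The split between the directions was thus 68.5% higher in the pooled comparison and 56.0% within batch 2. In the untreated 12-month oocytes, set against the same young oocytes, 2397 genes (19.7%) were higher and 691 (5.68%) lower.

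The GC content of the transcripts went with the direction of the difference. Genes higher in the NMN oocytes had a median transcript GC of 50.3% and genes lower had 45.8%, against 48.4% for all genes. From the lowest to the highest quintile of GC content the share of genes higher went from 8.58% to 20.4%, and the share lower from 10.6% to 3.05%. In the highest quintile the median log2 ratio to the young mean was 0.96 in NMN 1, 0.91 in NMN 2 and 0.97 in the untreated 12-month oocyte of the first batch, and 0 in NMN 2-1 and in the untreated oocyte of batch 2. Centring the ratios within GC quintiles gave 1454 genes higher and 1102 lower, a split of 56.9% higher. The part of GC content in the differences between single genes was not tested.

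**Figure D1:**
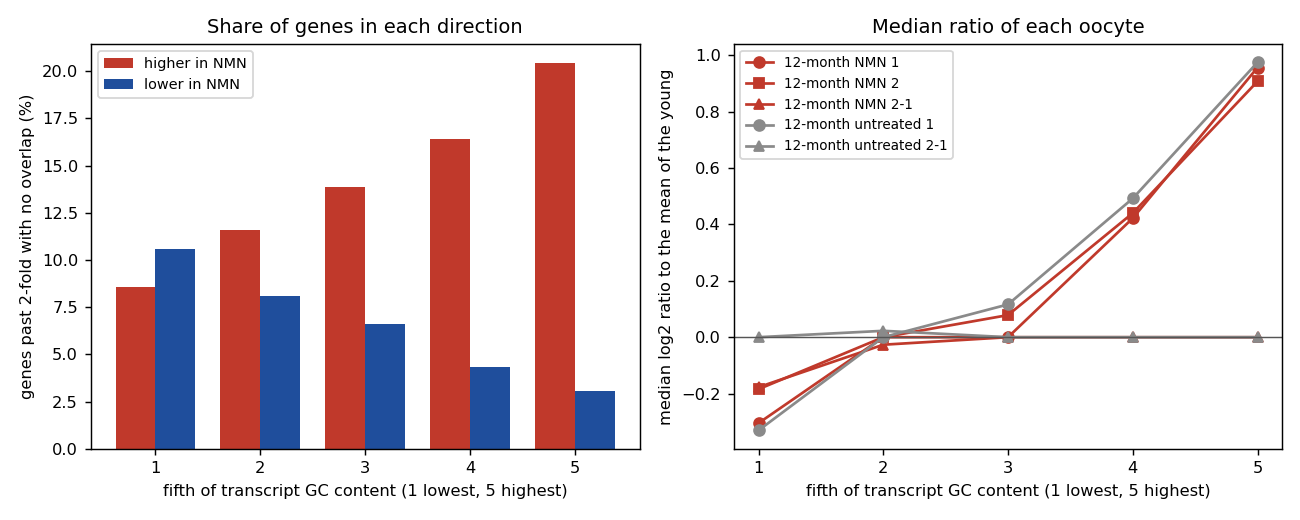
The left bars give the share of genes, in percent, past 2-fold with no overlap in each quintile of transcript GC content, higher (red) or lower (blue) in NMN than in young GV oocytes; the right lines give the median log2 ratio of each 12-month oocyte to the mean of the young. The share higher goes from 8.58% to 20.4%, and only the oocytes of the first batch (circles and square) depart from 0 in the highest quintile.

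The widest gap between the groups was at the clock gene Ciart, which encodes a repressor of the circadian transcription factors Clock and Bmal1. Values below run in the order NMN 1, NMN 2, NMN 2-1, then young 1 and young 2-2, in scaled CPM. Ciart (ENSMUSG00000038550, chr3:95878503-95882251 in GRCm38) was at 69.3, 30.7 and 31.1 in the NMN oocytes, from 497 counts, and had no count in either young oocyte. No count over both young oocytes allows up to 0.389 CPM (3 counts), so the mean was at least 112-fold higher. The untreated 12-month oocytes were at 25.4 and 0.246, so only the one of the first batch came near the NMN oocytes. Ece2, a membrane metalloprotease of the endothelin-converting family, was at 56.0, 40.7 and 25.4 and likewise had no count in the young, at least 105-fold higher. For Ece2 the untreated 12-month oocytes were at 73.0 and 7.12.

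At the lower end stood Zscan4c, a zinc-finger gene of the early embryo and of embryonic stem cells that belongs to a family of near-identical copies. It was at 0.686, 0.271 and 0 in the NMN oocytes, from 4 counts, and at 16.0 and 19.3 in the young, from 136 counts, with the groups well apart. Its mean was 55.3-fold lower, and the untreated 12-month oocytes lay between, at 6.14 and 1.47. Because reads can be split among the copies, the sum over the 5 named members of Zscan4a to Zscan4f is the safer value: 9.60, 1.90 and 2.31 against 20.3 and 25.3. Members named after their values were seen did not all lie on 1 side: Zscan4b was lower by the rule, while Zscan4d and Zscan4f were higher, at most at 3.89 and 4.80 in an NMN oocyte. Cpsf6, a subunit of the cleavage factor that chooses polyadenylation sites, was at 2.51, 0.543 and 0 against 29.6 and 25, a mean 26.8-fold lower. At Cpsf6 the untreated 12-month oocytes parted, with 2.63 in the first batch and 21.1 in batch 2.

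The 250 bases before the start of these 4 genes are printed to show what lies upstream of the genes with the widest gaps on each side. They run 5′ to 3′ on the gene's strand, from RefSeq on GRCm38.p6, and capitals mark the E-box CACGTG, the GC box GGGCGG and the box CCAAT, each searched on both strands; no marked motif overlaps another. Ciart lies on the minus strand (chr3:95882229-95882478), Ece2 on the plus strand (chr16:20629601-20629850), Zscan4c on the plus strand (chr7:11005495-11005744) and Cpsf6 on the minus strand (chr10:117376974-117377223).
Ciart: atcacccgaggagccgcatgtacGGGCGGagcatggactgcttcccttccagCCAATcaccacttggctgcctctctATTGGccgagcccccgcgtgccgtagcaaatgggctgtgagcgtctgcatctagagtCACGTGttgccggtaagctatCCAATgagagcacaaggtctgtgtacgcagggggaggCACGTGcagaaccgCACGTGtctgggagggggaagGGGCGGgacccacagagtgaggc
Ece2: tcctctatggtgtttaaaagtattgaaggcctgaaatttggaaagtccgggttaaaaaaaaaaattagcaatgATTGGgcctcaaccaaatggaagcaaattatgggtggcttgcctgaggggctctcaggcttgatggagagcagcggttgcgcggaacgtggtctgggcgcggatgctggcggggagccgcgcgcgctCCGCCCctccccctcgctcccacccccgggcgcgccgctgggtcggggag
Zscan4c: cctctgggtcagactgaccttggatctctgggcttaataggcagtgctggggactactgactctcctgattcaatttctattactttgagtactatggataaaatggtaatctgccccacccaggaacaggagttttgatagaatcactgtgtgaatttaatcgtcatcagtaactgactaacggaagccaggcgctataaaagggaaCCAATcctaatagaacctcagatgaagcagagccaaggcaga
Cpsf6: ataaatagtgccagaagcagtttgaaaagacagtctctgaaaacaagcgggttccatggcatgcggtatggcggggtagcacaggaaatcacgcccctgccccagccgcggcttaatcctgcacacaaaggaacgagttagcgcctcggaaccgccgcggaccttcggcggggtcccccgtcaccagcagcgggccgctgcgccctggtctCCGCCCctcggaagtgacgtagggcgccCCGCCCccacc
The Ciart window holds 3 E-boxes, 2 GC boxes and 3 CCAAT boxes at a GC content of 62%, and the Zscan4c window 1 CCAAT box at 44.8%. An E-box was found in 5.92% of 22862 promoters of genes with 1 listed start, in 8.34% of the promoters of genes kept here, in 8.34% of those of genes higher in NMN oocytes and in 8.04% of those of genes lower. GC boxes were in 57.4% of the kept, 56.3% of the higher and 53.7% of the lower, and CCAAT boxes in 37.8%, 37.2% and 40.0%. The shares of all 3 motifs were thus alike on the higher and the lower side.

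Other genes with a wide gap on the higher side had no count in the young oocytes. Pxmp4, a peroxisomal membrane protein, was at 22.2, 32 and 26.1, at least 68.9-fold higher. Rsu1, a partner of integrin-linked adhesion complexes, was at 21.9, 19.5 and 20, at least 52.7-fold higher. Marveld2, the tight-junction protein tricellulin, was at 13.3, 13.0 and 12.7, at least 33.4-fold higher. All 3 therefore were as high in NMN 2-1 as in the oocytes of the first batch. Aprt, which salvages adenine into AMP, was at 53.3, 26.1 and 19.6, at least 84.8-fold higher. Pld3, an endolysosomal protein of the phospholipase D family, was at 40.0, 28.5 and 20.4, at least 76.2-fold higher. Hagh, the glyoxalase that clears methylglyoxal adducts, was at 44.6, 29.3 and 12.3, at least 73.9-fold higher. In the untreated 12-month oocytes, Pld3 was at 16.7 and 0.491, Rsu1 at 19.3 and 0.982, and Hagh at 25.4 and 22.1.

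A second set of genes was higher mostly through NMN 1 and NMN 2. Sebox, an oocyte homeobox gene needed maternally by the early embryo, was at 126, 105 and 14.6 with no count in the young, a mean at least 209.8-fold higher. Ninj1, a membrane protein that ruptures the plasma membrane of dying cells, was at 552, 384 and 12.3 against 5.92 and 0.783. Map1lc3a, which encodes an LC3 protein of the autophagosome, was at 119.6, 71.4 and 13.5 against 1.03 and 0. In each of these 3 the NMN 2-1 oocyte was the lowest of the treated and still above both young. The untreated 12-month oocytes showed the same spread between batches, with Sebox at 64.7 and 1.47 and Ninj1 at 349.9 and 20.1. Ppp1ca, a catalytic subunit of protein phosphatase 1, was at 180.4, 129 and 12.7 against 0.772 and 0.783, but shares exon bases with Rad9a on the other strand, so its counts may hold reads of both.

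**Figure D2:**
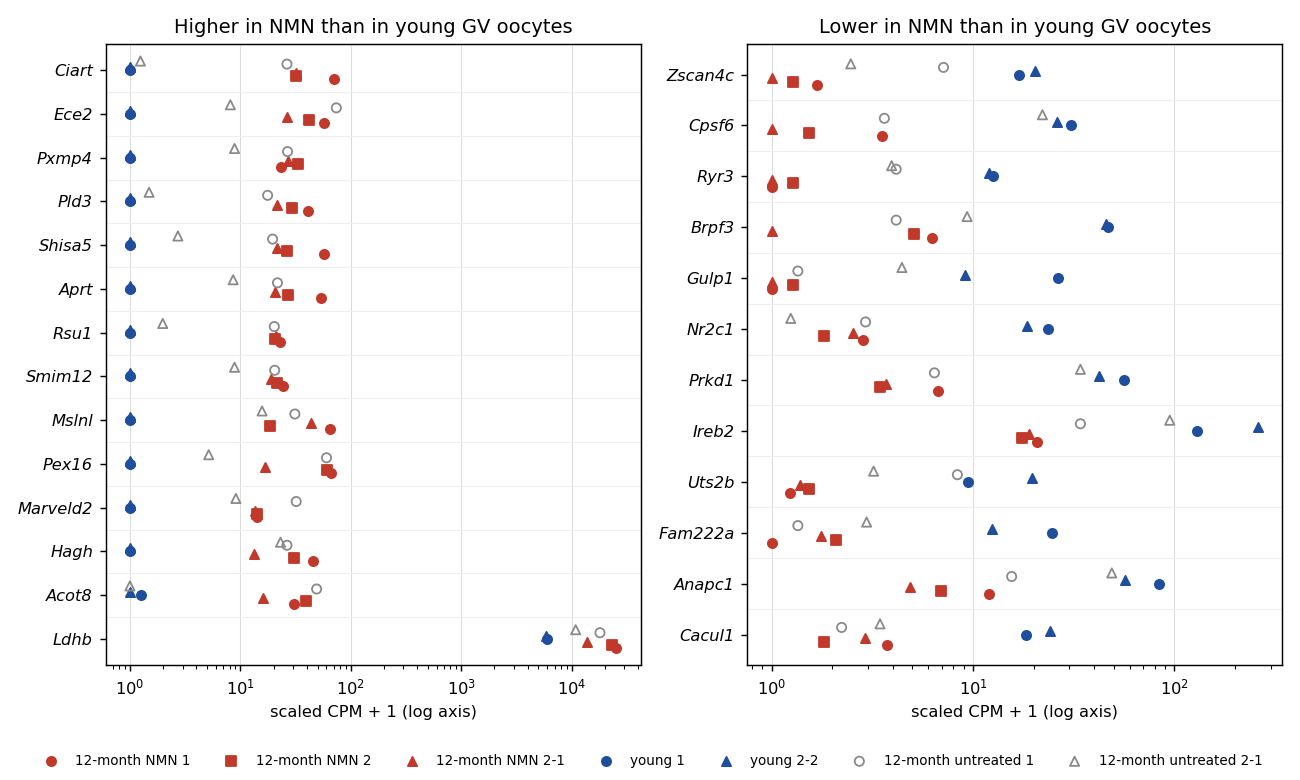
Each row is a gene and each point the scaled CPM of 1 oocyte plus 1, on a log axis: red for 12-month NMN, blue for young, open grey for untreated 12-month oocytes. Ciart and Ece2 lie between 25.4 and 69.3 in every NMN oocyte and at 0 in both young, while Ireb2 lies at 19.9 or below in the NMN oocytes and at 128 or above in the young.

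Among the lower genes with a wide gap was Ireb2. It encodes iron regulatory protein 2, which binds mRNAs of iron metabolism when iron is low. Ireb2 was at 19.9, 16.6 and 18.1 against 128 and 259, a mean 10.7-fold lower, and at 33.1 and 93.8 in the untreated 12-month oocytes. The 3 NMN oocytes lay close together and below all 4 others. Brpf3, a scaffold of histone acetyltransferase complexes, was at 5.26, 4.07 and 0 against 45.8 and 44.6, 14.5-fold lower. Prkd1, protein kinase D1, was at 5.72, 2.44 and 2.69 against 55.3 and 41.2, 13.4-fold lower. Nr2c1, an orphan nuclear receptor, was at 1.83, 0.814 and 1.54 against 22.7 and 17.5, 14.4-fold lower. For Nr2c1 the untreated 12-month oocytes were as low, at 1.93 and 0.246, whereas Prkd1 was at 5.44 and 33.1 in them. Ryr3, an endoplasmic calcium release channel, had 1 count in the NMN oocytes against 87 in the young (11.6 and 11 CPM), a pooled ratio of 120.2-fold with a counting interval of 21.0 to 4799.9-fold, and shares exon bases with Aven on the other strand. Gulp1, an engulfment adaptor, had 1 count against 130, with 25.5 and 8.09 CPM in the young. Both had at most 0.271 CPM in any NMN oocyte.

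The genes of NAD synthesis, uptake and salvage split in both directions. Of 23 matched genes, 12 passed the filter. By the rule 2 (16.7%) were higher and 2 (16.7%) lower, against 14.2% and 6.51% of all genes. The median log2 ratio of the 12 was 1.15 for the group means but 0.70, 0.64 and 0 for the single NMN oocytes. Summed over the list, the oocytes overlapped, at 129, 142 and 118 against 114 and 119. Nmnat1, the nuclear enzyme that joins NMN to ATP to give NAD, was at 32.9, 16.3 and 16.9 against 8.75 and 7.57, a mean 2.70-fold higher. Over the pooled counts this was 22.4 CPM (exact 95% Poisson interval 19.7 to 25.3, counting error only) against 7.98 (6.13 to 10.2). Slc12a8, described as an NMN transporter, was at 5.26, 2.71 and 9.61 from 58 counts, against 1 count in the young; the pooled ratio was 42.0 with a counting interval of 7.25 to 1687. Both genes were above every young oocyte in each NMN oocyte, but Nmnat1 did not meet the rule without NMN 1 or in NMN 2-1 alone. Untreated 12-month oocytes were at 18.4 and 6.63 for Nmnat1 and at 5.26 and 12.3 for Slc12a8.

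Nadk, the kinase that makes NADP from NAD, was at 8.69, 9.23 and 6.53 against 23.7 and 31.3, a mean 3.37-fold lower. Untreated 12-month oocytes had 20.2 and 32.7, so for this gene the NMN oocytes lay below all 4 untreated oocytes. Slc25a51, the mitochondrial NAD carrier, was at 6.86, 5.16 and 1.92 against 12.4 and 11.5, 2.57-fold lower, and did not meet the rule on deposited TPM, with a pseudocount of 5 or without NMN 2-1. Nampt, the rate-limiting enzyme of salvage from nicotinamide, was at 12.3, 7.87 and 0 against 1.03 and 0.261, so the groups overlapped. Nmrk1, the kinase that makes NMN from nicotinamide riboside, also overlapped, at 25.6, 43.4 and 48.4 against 35.3 and 32.1. Of the kynurenine route, Kmo, Haao, Acmsd and Ido1 had no count in any of the 5 oocytes, and Tdo2 and Afmid had counts only in NMN 1 and NMN 2 (4.57 and 9.23 for Tdo2; 11.4 and 12.5 for Afmid).

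All 7 sirtuins passed the filter, and 3 (42.9%) were higher by the rule and none lower, against 14.2% and 6.51% of all genes. Their median log2 ratio was 2.51 for the means and 2.72, 2.62 and 0.74 in the single NMN oocytes; it was 1.82 for the untreated 12-month oocytes. Sirt4, a mitochondrial sirtuin, was at 33.1, 16.8 and 1.54 with no count in the young, at least 44.2-fold higher. Sirt5, the mitochondrial desuccinylase, was at 15.3, 16.6 and 3.46 against 2.32 and 0, a mean 10.2-fold higher. Sirt2, the mainly cytoplasmic tubulin and histone deacetylase, was at 2.51, 2.71 and 8.84 with no count in the young, at least 12.1-fold higher, but shares exon bases with Nfkbib and did not meet the rule with a pseudocount of 5. Sirt2 was thus highest in NMN 2-1, and Sirt4 and Sirt5 lowest there. Sirt3, the main mitochondrial deacetylase, was at 24.5, 24.2 and 0 with no count in the young, so NMN 2-1 did not differ from them. Sirt6 (49.2, 36.1 and 3.08 against 12.1 and 6.52) and Sirt7 (85.0, 79.8 and 7.30 against 24.2 and 0) also overlapped through NMN 2-1. Sirt1, the nuclear deacetylase, was at 2.29, 2.44 and 12.7 against 1.03 and 13.3. The summed sirtuin level was 212, 179 and 36.9 against 39.6 and 19.8, so only the first batch stood apart. Of the 12 kept PARPs and other NAD consumers, 2 (16.7%, near the 14.2% of all genes) were higher by the rule and none lower. The 2 were Tnks2 and Parg, both near or under 10 CPM and named after their values were seen. The sum of that list was lower in every NMN oocyte, at 126, 179 and 191 against 227 and 232.

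**Figure D3:**
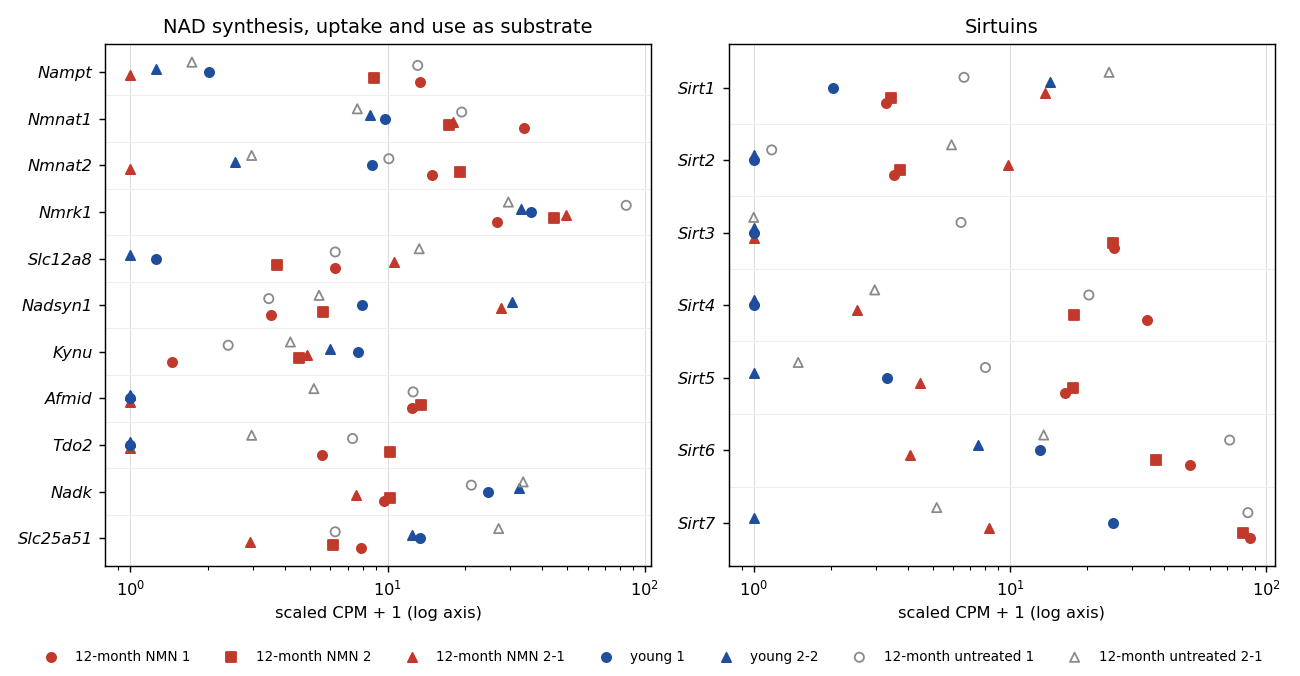
Scaled CPM plus 1 on a log axis for genes of NAD synthesis and use (left) and the sirtuins (right), with 1 point for each oocyte. Nadk lies at 9.23 or below in the NMN oocytes and at 20.2 or above in the other 4, and Sirt3 is at 24.5 and 24.2 in NMN 1 and NMN 2 but at 0 in NMN 2-1 and both young.

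Genes of glycolysis and lactate stood higher in the NMN oocytes. Of 24 kept genes of glycolysis, lactate and pyruvate, 9 (37.5%, against 14.2% of all genes) were higher by the rule and 1 lower, with a median log2 ratio of 1.46 against 0.26 for all genes; in the single NMN oocytes it was 1.53, 1.16 and 0.27. Ldhb, the lactate dehydrogenase subunit that dominates in oocytes, was at 25482, 23066 and 13859 against 5974 and 5837, a mean 3.52-fold higher. For Ldhb the untreated 12-month oocytes were at 18060.0 and 10875, so every 12-month oocyte lay above both young in both batches. Ldhb was among the 10 most abundant genes per transcript length, at 19764, 20106 and 9328 deposited TPM against 4299 and 4494.
Eno1, the glycolytic enolase, was at 140.1, 75.5 and 3.08 with no count in the young, at least 188-fold higher. Gpi1, glucose-6-phosphate isomerase, was at 49.4, 26.3 and 45.0 against 6.44 and 0, a mean 12.5-fold higher. Aldoa, an aldolase, was at 169, 86.9 and 28.1 against 21.4 and 14.1. Gpi1 was high in all 3 NMN oocytes, while NMN 2-1 came close to the young for Eno1 and Aldoa. Gapdh, often used as a reference gene, was at 63.6, 37.5 and 6.53 against 11.8 and 4.17 and overlapped.

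Of 21 kept genes of the citric acid cycle 4 (19.0%) were higher and 1 (4.76%) lower, near the 14.2% and 6.51% of all genes. Their median was 0.49, and 0 in NMN 2-1, while the summed level of the list was 2037, 1895 and 1033 against 794 and 852. Mdh2, mitochondrial malate dehydrogenase, was at 466, 441 and 112 against 66.9 and 36.8, 6.55-fold higher. Suclg1, a subunit of succinyl-CoA ligase, was at 95.3, 89.8 and 46.5 against 4.89 and 12.0, 9.14-fold higher. Fh1, fumarate hydratase, was at 64.2, 50.2 and 61.9 against 16.2 and 18.5, 3.38-fold higher, but did not meet the rule on deposited TPM. Suclg1 and Fh1 were clear of the young in NMN 2-1 too. Of 15 kept genes of fatty acid oxidation 5 (33.3%) were higher and none lower, with a median of 0.84 and a sum of 669.8, 494 and 483 against 264 and 283. Eci1, which isomerises enoyl-CoA from unsaturated fatty acids, was at 13.9, 11.4 and 11.5 with no count in the young, at least 31.6-fold higher. Me3, a mitochondrial malic enzyme, went the other way, at 1.14, 1.90 and 0 against 14.2 and 23.7, 18.7-fold lower.

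Of 27 kept antioxidant genes 6 (22.2%, against 14.2% of all genes) were higher and 1 (3.70%, against 6.51%) lower, with a median of 0.78, but of 0.04 in NMN 2-1. Gpx4, which reduces lipid peroxides, was at 157, 131 and 9.99 against 9.01 and 6.52. Glrx, glutaredoxin, was at 1590.4, 1216 and 291 against 154 and 269. In both genes NMN 1 and NMN 2 were far above the young, and NMN 2-1 was just above the higher young oocyte; Glrx did not meet the rule on deposited TPM.

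The mRNAs encoded in the mitochondrial genome stood on the lower side. None of the 13 was higher by the ratio of means and 12 were lower, with a median of -0.42 (-1.33 in the untreated 12-month oocytes), but the sums overlapped, at 47135, 27357 and 34758 against 34328 and 85876. Mitochondrial RNA took 2.87% to 4.58% of the counts in the NMN oocytes and 3.75% and 8.55% in the young, so young 2-2 stood apart. The 3 that met the rule (23.1%, against 6.51% of all genes) were complex I subunits. mt-Nd2 was at 1016, 640.3 and 1821 against 3190.1 and 2846, 2.60-fold lower. mt-Nd5 was at 649, 357 and 843 against 1402 and 1424, 2.29-fold lower. mt-Nd6, which lies opposite mt-Nd5 and shares bases with it, was at 69.3, 36.6 and 164 against 178 and 258. The untreated 12-month oocytes were at 530.0 and 1265 for mt-Nd2 and at 344 and 347 for mt-Nd5. For mt-Nd5 they were below every NMN oocyte. Without NMN 2, mt-Nd5 and mt-Nd6 did not meet the rule, nor did mt-Nd6 without young 2-2 or on deposited TPM. Of 37 kept nuclear genes of complex I 3 (8.11%) were higher and 1 (2.70%) lower, with a median of -0.37. Of 41 kept genes of complexes II to V 5 (12.2%) were higher and 4 (9.76%) lower, with a median of -0.27. The shares of all genes were 14.2% and 6.51%. The 2 lists had no common direction, and in NMN 2-1 their medians were on the other side, at 0.16 and 0.14. Ndufa10, a complex I subunit, was at 291, 230.5 and 115 against 46.3 and 30.8, while Ndufa1, which did not meet the rule without NMN 2 or on deposited TPM, was at 256, 161 and 621 against 883 and 792. Cox7a2l, which links respiratory supercomplexes, was at 426, 358 and 208 against 76.7 and 49.0, 5.26-fold higher.

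Mitochondrial ribosomal proteins (78 kept) were higher in 9 genes (11.5%) and lower in 4 (5.13%), near the 14.2% and 6.51% of all genes. Genes of mitochondrial DNA expression and import (37 kept) were higher in 7 (18.9%) and lower in 3 (8.11%). Mrpl38 was at 25.1, 38.3 and 20.8 against 1.54 and 0, a mean 36.3-fold higher. Tomm40, the pore of the outer membrane translocase, was at 77.3, 70.8 and 24.6 against 6.18 and 1.57. Slirp, which stabilises mitochondrial mRNAs, was at 112, 118 and 488 against 966 and 552, 3.17-fold lower by the means; Tomm40 and Slirp both share exon bases with other genes. Mrpl38 and Tomm40 were above the young in every NMN oocyte, as the rule demands, and Slirp in NMN 2-1 was close to young 2-2.

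**Figure D4:**
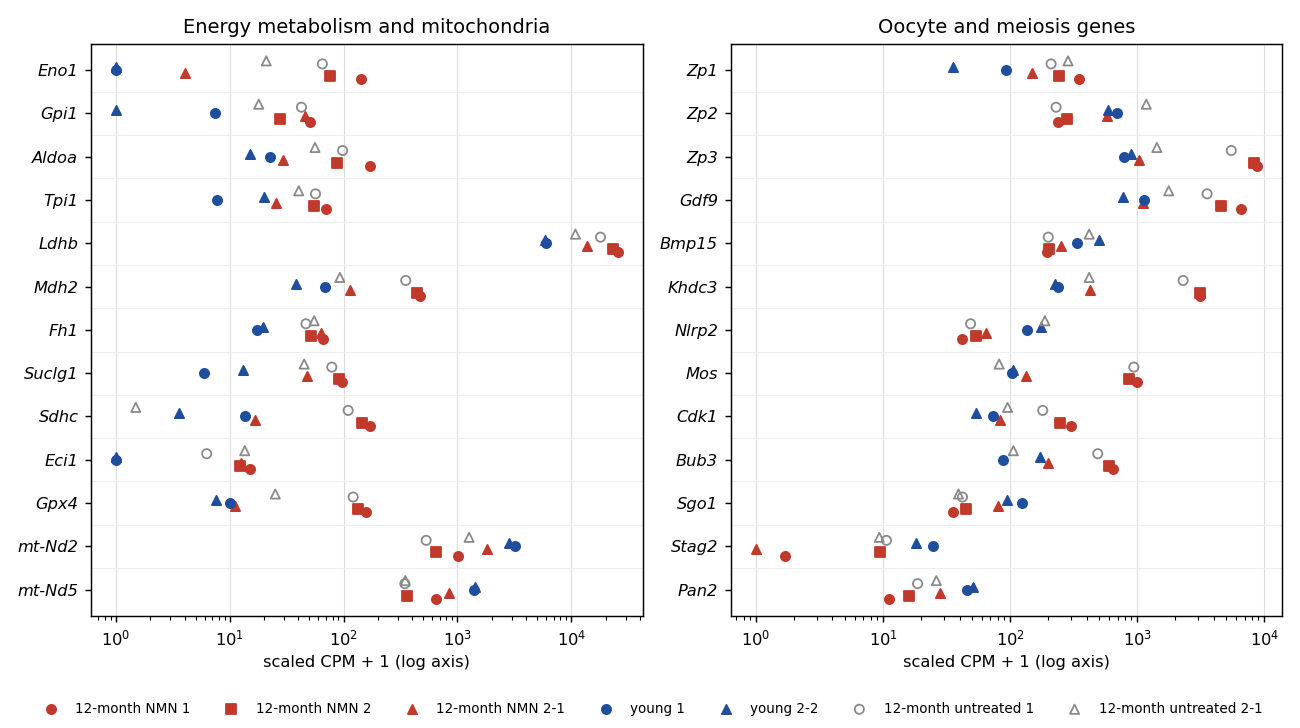
Scaled CPM plus 1 on a log axis for genes of energy metabolism and mitochondria (left) and of oocyte identity and meiosis (right), with 1 point for each oocyte. Ldhb is at 13859 or above in the NMN oocytes and at 5974 or below in the young, and mt-Nd2 is at 1821 or below against 2846 or above.

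Genes of oocyte identity differed by gene rather than as a group. Of 29 kept, 6 (20.7%) were higher and 2 (6.90%) lower, against 14.2% and 6.51% of all genes. Their median was 0.63 for the means and -0.16 in NMN 2-1. Zp3, the zona pellucida sperm receptor, was at 8818, 8274 and 1027 against 782 and 891, a mean 7.22-fold higher, and did not meet the rule after centring on GC. Zp1, which crosslinks zona filaments, was at 350.0, 241 and 147 against 91.4 and 34.4, 3.91-fold higher. Zp2 was at 238, 278 and 572 against 697 and 589, on the lower side by less than 2-fold. The zona genes thus lay on different sides. Gdf9, the growth factor through which the oocyte directs its granulosa cells, was at 6570.0, 4551 and 1109 against 1139.7 and 770.3 and overlapped, while its partner Bmp15 was at 195, 201 and 249.9 against 335 and 496, lower in every NMN oocyte but by less than 2-fold. H1foo, the oocyte linker histone, was at 24778, 22397 and 5959.9 against 4938 and 3790.1. NMN 2-1 was the closest to the young there, and H1foo did not meet the rule after centring on GC.

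The subcortical maternal complex, a protein assembly under the egg membrane needed for the first cleavages, and its Nlrp relatives counted 16 kept genes with a median of -0.46. Of these, 1 (6.25%) was higher and 3 (18.8%) lower, against 14.2% and 6.51% of all genes. The summed level went the other way, at 6907, 6507 and 6272 against 5543 and 5508, higher in every NMN oocyte. Khdc3, a member of the complex, was at 3099, 3112 and 425 against 235 and 223, 9.66-fold higher. In NMN 1 and NMN 2 the sum lay above the young only through Khdc3, whereas in NMN 2-1 it did so without Khdc3 too. Nlrp2 was at 40.9, 53.2 and 63.0 against 134 and 174, 2.94-fold lower, with no NMN oocyte near the young. Nlrp4a and Nlrp4e were lower too, but belong to a family of close copies among which reads may be split, and neither met the rule without young 2-2; Nlrp4a also missed it without NMN 2. The untreated 12-month oocytes were at 47.9 and 187 for Nlrp2 and at 2296 and 418 for Khdc3.

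Genes that degrade maternal mRNA leaned to the lower side by number of genes, but not by summed level. Of 22 kept genes of deadenylation and decay 1 (4.55%) was higher and 6 (27.3%) were lower, against 14.2% and 6.51% of all genes. Their median was -0.58, and -0.94, -0.29 and -0.61 in the single NMN oocytes. For the untreated 12-month oocytes it was -0.15. Summed over the list, the oocytes overlapped, at 1825, 2272 and 1569 against 1735 and 2409. Pan2, the catalytic subunit of a poly(A) nuclease, was at 10.1, 14.9 and 27.3 against 44.5 and 50.3, 2.72-fold lower. Its partner Pan3 was at 14.2, 22.5 and 48.1 against 61.0 and 157, 3.86-fold lower. Xrn1, the 5′ to 3′ exonuclease, was at 5.72, 8.69 and 1.54 against 21.4 and 11.2, 3.07-fold lower, but did not meet the rule on deposited TPM or without young 1. As the rule demands, the 3 were lower in each NMN oocyte than in either young. Btg4, the adaptor that brings the deadenylase to maternal mRNAs, overlapped, at 989.9, 1346 and 575 against 409.6 and 753.

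Among 21 kept genes of mRNA storage and translation 2 (9.52%) were higher and 2 (9.52%) lower, against 14.2% and 6.51% of all genes. Eif4e1b, the oocyte form of the cap-binding protein, was at 35.7, 29.6 and 38.1 against 6.95 and 12.3, 3.58-fold higher, with similar values of 29.6 and 27.5 in the untreated 12-month oocytes. Zar1, which holds stored mRNAs, was at 1824, 1277 and 719 against 671 and 569, 2.05-fold higher, and did not meet the rule without NMN 1, without young 2-2 or after centring on GC. Ythdf2, a reader of methylated adenosine that directs maternal mRNA decay, was at 13.0, 15.7 and 22.3 against 73.9 and 27.7, 2.98-fold lower, and did not meet the rule without young 1. Eif4e1b was clear of the young in every NMN oocyte; Zar1 and Ythdf2 were nearer to them.

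Of 31 kept meiotic kinases and cyclins 6 (19.4%) were higher and 3 (9.68%) lower, near the 14.2% and 6.51% of all genes, with a median of 0.51. Of 17 kept genes of the spindle checkpoint and passenger complex 5 (29.4%) were higher and none lower (median 0.53, and 1.05, 0.80 and 0.38 in the single NMN oocytes). Mos, the kinase that holds the mature egg in arrest, was at 1002, 858 and 133 against 102 and 104. Cdk1, the kinase of M-phase entry, was at 303, 248 and 83.0 against 72.9 and 53.0. Bub3, a checkpoint protein, was at 639, 596 and 198 against 86.5 and 170.1. Mos did not meet the rule after centring on GC. In these 3 the means were 6.46-fold, 3.36-fold and 3.73-fold higher through NMN 1 and NMN 2, and NMN 2-1 lay less than 2-fold above the young. Mad2l1bp, which silences the checkpoint by acting on Mad2, was at 113, 46.4 and 30.0 against 1.03 and 4.43, 23.1-fold higher, and Zw10, which loads dynein on kinetochores, at 17.1, 21.2 and 25.4 against 6.44 and 0. Mad2l1bp and Zw10 were above the young in all 3 NMN oocytes, as the rule demands.

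Of 19 kept cohesin genes 1 (5.26%) was higher and 2 (10.5%) lower, against 14.2% and 6.51% of all genes. Their median was -0.66, against -0.16 in the untreated 12-month oocytes. The summed level of the list was lower in every NMN oocyte, at 926, 1474 and 1679.9 against 1838 and 1984. Sgo1, a shugoshin that protects cohesin, was at 34.7, 43.7 and 78.8 against 122 and 93.9, 2.06-fold lower, and did not meet the rule after centring on GC or without NMN 1, NMN 2 or young 1. Stag2, a subunit of mitotic-type cohesin, was at 0.686, 8.41 and 0 against 23.7 and 17.2, 6.74-fold lower, but did not meet the rule on deposited TPM. Rec8, the meiotic kleisin, had no count in any of the 5 oocytes. In the anaphase-promoting complex 3 of 22 kept genes (13.6%) were higher and 2 (9.09%) lower, near the shares of all genes. Its large scaffold Anapc1 was at 11, 5.97 and 3.84 against 82.9 and 55.8, 10-fold lower, and at 14.6 and 47.9 in the untreated 12-month oocytes. Kinetochore genes (36 kept) were higher in 3 (8.33%) and lower in 1 (2.78%): Dsn1, of the Mis12 complex, was at 34.5, 57.3 and 61.1 against 7.72 and 6.78, 7.03-fold higher. Of 37 kept spindle and tubulin genes 4 (10.8%) were higher and 2 (5.41%) lower. Among them Tubb6, a beta-tubulin, was at 729, 508 and 127 against 115 and 61.0.

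The lists of protein turnover, stress and cell death differed in how many members met the rule. The proteasome had 42 kept genes with 3 (7.14%, against 14.2% of all genes) higher and none lower, and a median of 0.57. Its summed level was higher in each NMN oocyte, at 15048, 13577 and 12403 against 10985 and 11368. Adrm1, a ubiquitin receptor of the proteasome, was at 258, 268 and 45.0 against 29.3 and 31.8. Hspb1, a small heat shock protein, was at 14.9, 8.14 and 28.8 against 1.03 and 0, 33.6-fold higher, whereas Hspa4, an Hsp110 chaperone, was at 44.1, 42.9 and 38.4 against 95.0 and 164, 3.09-fold lower. The stress sensor Ern1 was at 4.34, 25.2 and 38.8 against 104 and 65.2, 3.72-fold lower. Hspb1 and Hspa4 thus met the rule in opposite directions. Of 29 kept autophagy and mitochondrial dynamics genes 6 (20.7%) were higher and 1 (3.45%) lower, against 14.2% and 6.51% of all genes. Mfn1, which fuses mitochondria, was at 16.5, 20.4 and 30.8 against 11.1 and 3.39, and Mff, which recruits the fission machinery, at 109, 69.8 and 70.7 against 149 and 224; neither met the rule without young 2-2. Of 16 kept BCL2 family and apoptosome genes 3 (18.8%) were higher and 1 (6.25%) lower, near the 14.2% and 6.51% of all genes. Bcl2l1, the anti-apoptotic Bcl-xL, was at 22.4, 25.2 and 3.08 against 2.83 and 1.04.

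Immediate early genes can mark handling of cells. Of 5 kept 2 (40%, against 14.2% of all genes) were higher: Btg2, an antiproliferative early gene, at 18.7, 19.0 and 52.7 against 2.83 and 0, and Dusp1, a phosphatase of MAP kinases, at 20.3, 11.4 and 43.1 against 0.257 and 4.70. The summed level of the list was 46.6, 40.4 and 95.7 against 8.75 and 4.70, and 69.4 and 28.2 in the untreated 12-month oocytes, so every 12-month oocyte was above both young. Dusp1 did not meet the rule after centring on GC. The part of handling in the other results was not tested.

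Among nuclear regulators, 6 of 46 kept chromatin enzymes (13.0%) were higher and 2 (4.35%) lower, near the 14.2% and 6.51% of all genes. On each side lay 5 of 37 DNA repair genes (13.5%). Kmt2b, the methyltransferase that marks promoters in growing oocytes, was at 11.7, 25.5 and 2.31 with no count in the young, at least 33.9-fold higher. Kat8, a histone H4 acetyltransferase, was at 255, 196 and 159 against 41.4 and 69.4, 3.67-fold higher. Hdac6, a cytoplasmic deacetylase, was at 2.97, 1.90 and 0 against 18.8 and 14.9, 10.4-fold lower. All 3 kept their side in each NMN oocyte. Lig3, a ligase of nuclear and mitochondrial repair, was at 6.63, 6.79 and 0 against 28.6 and 42.8, 7.98-fold lower. Xrcc1, the partner of Lig3, was at 16.7, 28.2 and 54.6 against 10.8 and 2.09, on the higher side, though not by the rule after centring on GC. The 2 partners thus met the rule on opposite sides.

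Few genes of the cytosolic ribosome and the core spliceosome met the rule on the higher side. Of 84 kept ribosomal proteins 3 were higher (3.57%, against 14.2% of all genes) and 3 lower, with a median of -0.16, and of 41 kept spliceosome genes 2 were higher (4.88%) and 3 lower, with a median of -0.24. Of 38 kept translation factors 6 were higher (15.8%) and 2 lower, a share near that of all genes. Eef1g, a subunit of elongation factor 1, was the clearest among them, at 26.1, 9.77 and 14.2 with no count in the young, at least 42.9-fold higher. Lsm7, of the ring that binds U6 RNA, was at 86.4, 65.1 and 403 against 499.9 and 471, NMN 2-1 lay near the young, and without NMN 2 the gene did not meet the rule. Of 22 kept fertilization genes 3 (13.6%) were higher and 1 (4.55%) lower, near the shares of all genes. Izumo1r, the egg receptor for sperm Izumo1 known as Juno, was at 287, 218 and 77.3 against 24.7 and 33.9, 6.63-fold higher. Cd9, the tetraspanin needed for fusion with sperm, was at 265, 166 and 51.1 against 41.2 and 12.3. Izumo1r was more than 2-fold above both young in each NMN oocyte, and Cd9 in NMN 2-1 was not.

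**Figure D5:**
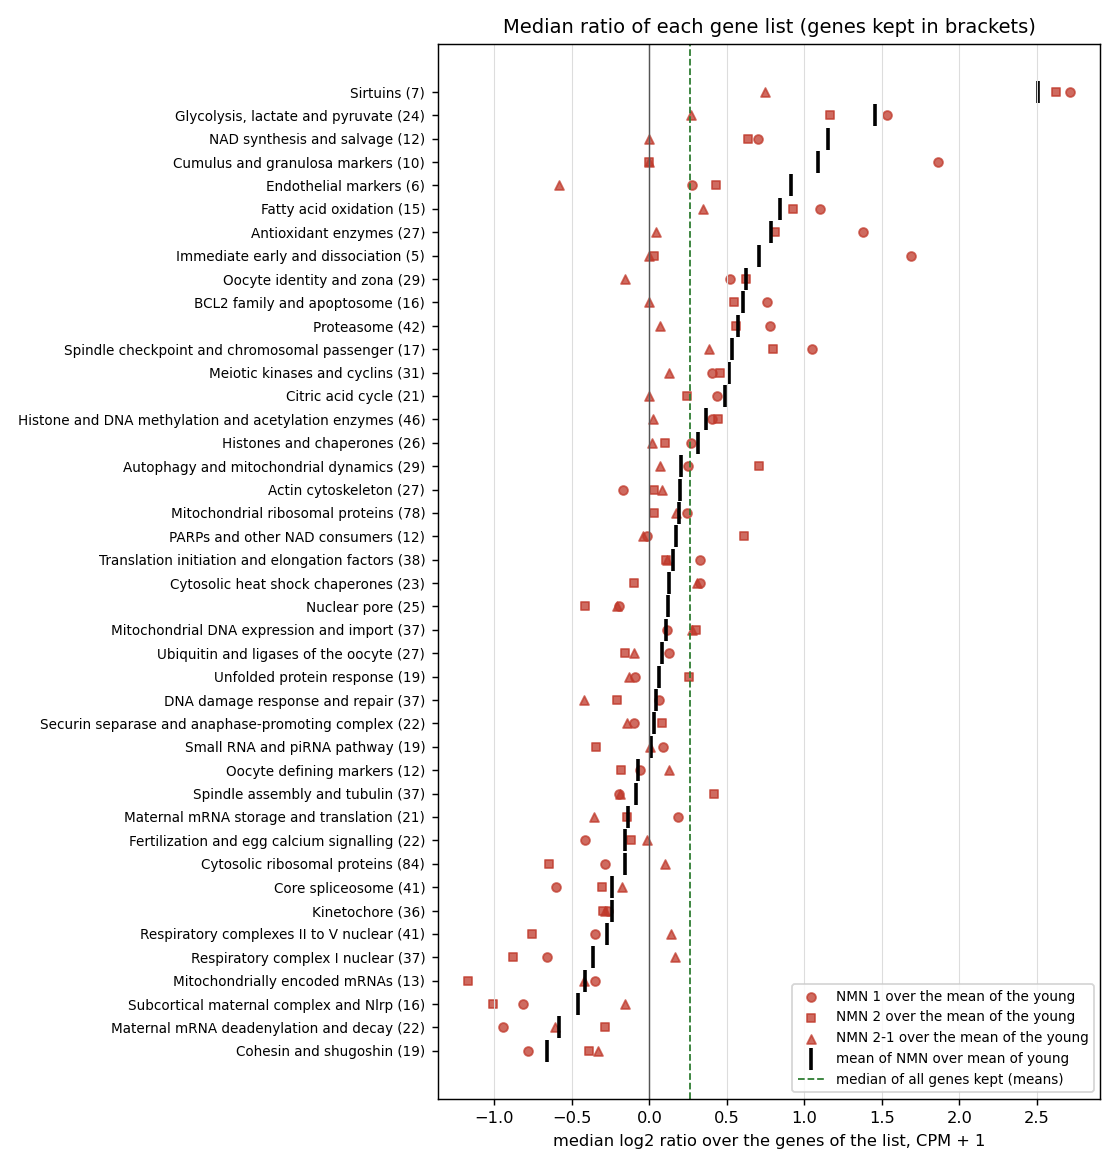
Median log2 ratio over the genes of each list with at least 5 genes kept, for the group means (black bar) and for each NMN oocyte over the mean of the young (red points), with the number of genes kept in brackets; the dashed line is the median of all genes, 0.26. The sirtuin list is the highest at 2.51 and the cohesin list the lowest at -0.66, and NMN 2-1 (triangles) is nearer to 0 than NMN 1 in both.

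Markers of other cell types were low beside those of the oocyte. The summed cumulus and granulosa markers were highest in NMN 1, at 116, 27.1 and 14.6 against 27.5 and 61.0. Amh, Fshr and Foxl2 were at 0 in all 5 oocytes, and the theca markers reached at most 5.70. Summed endothelial markers overlapped, at 26.3, 27.7 and 11.9 against 34.0 and 12.0. Of 6 kept, 1 (16.7%, near the 14.2% of all genes) was higher by the rule and none lower. Of 10 kept cumulus and granulosa markers 1 (10%), Gja1, was higher by the rule and 1 (10%), Cyp19a1, lower, against 14.2% and 6.51% of all genes. Cyp19a1 was at 5.03, 9.50 and 0.384 against 26.3 and 15.1. Among these lists only the immune sum was higher in every NMN oocyte than in both young, mostly through C1qb, a complement subunit of macrophages. C1qb was at 97.2, 166 and 21.5 against 2.83 and 0, and at 227 and 9.82 in the untreated 12-month oocytes. Of the 3 kept immune markers, C1qb was higher by the rule and Csf1r, named after its values were seen, went the other way and was lower by the rule. The summed immune level was 101, 176 and 21.9 against 9.27 and 8.87, while Ptprc, Adgre1, C1qa, Tyrobp and Cd74 were at 0 in all 5. The level of C1qb was highest in the oocytes of the first batch, as for Ninj1 and Sebox; its part in other results was not tested.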

How the data were processed

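RNA of single GV oocytes was sequenced. The deposited tables give, for each of 47069 Ensembl genes, an expected count and a TPM (transcripts relative to all transcripts of the library), per the file headers; the labels' protocols do not name the tool that made them, and the submitters' processing notes list TopHat2 2.1.1, Cufflinks, Trim Galore 0.4.5 and FastQC 0.11.8, with the builds mm10 and GRCm38. The authors' expected counts were rounded to whole numbers, since reads shared between genes are split into fractions. The authors' TPM values served as an alternative unit and for levels per length.

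Genes were kept by edgeR 4.0.16 (filterByExpr, minimum count 10, by group, over 16 oocytes), which left 12161, and scaled to TMM-normalised CPM. A difference is log2 of the ratio of group means, each with 1 CPM added. A gene met the rule past 2-fold with no overlap. 1 untreated 12-month library with 5009 counts was left out. Symbols and positions came from GENCODE vM21, which named 46488 genes. Protein-coding genes were named where no oocytes overlapped and the group with more RNA averaged 10 CPM or above, by the largest ratio or gap overall (up to 15 a direction) or the largest ratio in 1 of 45 gene lists (up to 4 a list); the NAD synthesis and sirtuin lists, Gdf9, Zp3, Btg4, Gapdh, Actb and the 10 genes of highest TPM were added whatever their values. The members and lists were chosen with earlier results of these data known. The calculation of the size rule was checked on simulated counts with known folds. The simulated oocytes had no differences of batch or GC content, so the check cannot show how the rule does under such differences. Library totals were 2756181 to 4690580. Limits from counts of 0 (3 counts) and Poisson intervals (95%) cover counting error only. The alternatives were other scalings (size factors of DESeq2 1.42.0 and library totals), deposited TPM, a pseudocount of 5, means of logs, no filter, the 5 oocytes alone, a fold of 4, batch 2 alone and leaving out each oocyte; centring within GC quintiles, counting the identical young library as 2 and the demand on every oocyte were added after seeing the data. No p-value was computed, because each group is 1 sample.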

Additional observations from a re-analysis of the deposited data

Results flagged for a closer look

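18 of the 58 named genes higher by the rule in GV oocytes lay on the opposite side at metaphase II (MII), the stage of the mature egg. Of the 33 named genes lower by the rule in GV oocytes 0 did. For the 18, every GV oocyte of NMN-treated mice was above every young GV oocyte, and every MII oocyte of NMN-treated mice was below every young MII oocyte. The difference between the stages was not tested. Among all 1723 genes higher in GV by the rule, 326 (18.9%) did the same, and of all 12161 genes kept 15.2% were lower in every treated than in every young MII oocyte. Of all 792 genes lower in GV by the rule, 11 (1.39%) were higher in every treated MII oocyte, as were 1.01% of all genes kept. All 18 were higher in GV, and their log2 ratios of NMN over young at MII, in 3 oocytes a group, follow. For glycolysis and the citric acid cycle they were -4.23 for Eno1, -3.29 for Aldoa, -2.02 for Gpi1, -3.38 for Mdh2 and -2.24 for Suclg1. For the zona genes they were -4.33 (Zp1) and -3.43 (Zp3), and for checkpoint genes -2.48 (Bub3) and -4.48 (Zw10). For mitochondria, redox and fatty acid oxidation they were -2.24 (Mrpl38), -1.49 (Tomm40), -3.90 (Glrx) and -4.76 (Eci1). The rest were Pxmp4 at -3.48, Marveld2 at -3.71, Kat8 at -2.22, Slc12a8 at -1.51 and C1qb at -4.27. Of these genes, 6 (Mdh2, Eci1, Zw10, Marveld2, Tomm40 and C1qb) had no count in any of the 3 treated MII oocytes, so their ratios rest on the added 1 CPM and on the young level. Those oocytes had 6400, 5640 and 7704 genes detected, against 9062, 12600 and 13444 in the young MII oocytes; the part of this in the ratios was not tested. Summed levels of 2 lists did the same, also without a test. The citric acid cycle genes at MII were 0.418 times the young level, and the genes of the subcortical maternal complex and Nlrp list 0.497 times. In GV, the higher sum of the latter list in NMN 1 and NMN 2 rested on Khdc3.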

How the results depend on the processing

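No paired analysis was possible because the results come from no test and the labels name no animals or pairs. The counts of genes higher and lower were 1723 and 792. Asking for a 4-fold difference gave 1002 and 207, and asking every NMN oocyte to lie past 2-fold of every young oocyte gave 747 and 202. Within batch 2, with young 1 counted there, they were 2083 and 1639, on 1 NMN oocyte against the same young oocytes. Of the genes higher and lower in the pooled comparison, 75.3% and 69.2% were past 2-fold there too. The pooled rule had already asked NMN 2-1 not to overlap the young, so only the size of the difference was checked again. Leaving out 1 oocyte gave 1848 to 3540 higher and 841 to 1856 lower: 3540 and 1450 without NMN 2-1, 3155 and 1856 without young 1, and 2653 and 1780 without young 2-2, where fewer oocytes must not overlap. Other scalings, deposited TPM, a pseudocount of 5, means of logs, no filter, the 5 oocytes alone, GC centring and the doubled young library kept both counts within 1.5 times. The median log2 ratio of all genes, 0.26, was 0.14 with a pseudocount of 5, 0.12 with the 5 oocytes alone, 0 within batch 2, 0.020 after GC centring, and 0.16 to 0.63 when 1 oocyte was left out; the cause was not tested. None of the 91 named genes that met the rule changed direction under any alternative run. The rule demands no overlap, so leaving out an oocyte or taking NMN 2-1 alone could hardly reverse a gene. That none reversed is thus no support for their direction. Of the 91, 24 did not meet the rule within batch 2, 8 after GC centring, 7 on deposited TPM and at most 6 when 1 oocyte was left out. Of 39 list medians 10 changed sign within batch 2, 11 after GC centring, 4 to 9 when 1 oocyte was left out, 3 with the 5 oocytes alone, 3 with the doubled young library and at most 1 under the other settings; of those past 0.5, oocyte identity did, at -0.16 within batch 2. With 0 to 3 counts in a group, as for Ryr3 and Gulp1, only the counting interval limits the ratio.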

Other observations

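The wide gap at Ciart and at the peroxisomal genes Pxmp4 and Pex16 led to 2 further lists, drawn up after these values had been seen and described without a test. Ciart, Pxmp4 and Pex16 are counted in the shares higher below, which they raise. Of 22 circadian clock genes 16 passed the filter, with a median log2 ratio of 0.33. By the rule 2 (12.5%) were higher (Npas2 and Ciart) and 3 (18.8%) lower (Clock, Cry1 and Csnk1d), against 14.2% and 6.51% of all genes. Values are scaled CPM in NMN 1, NMN 2 and NMN 2-1, then young 1 and young 2-2. Npas2, a paralog of Clock, was at 10.7, 4.89 and 3.84 against 0.515 and 0.261. Clock, the partner of Bmal1, was at 4.57, 14.7 and 1.54 against 17.0 and 53.7. Cry1, a repressor of the pair, was at 24.5, 33.9 and 7.30 against 92.2 and 77.7, and at 23.7 and 105 in the untreated 12-month oocytes. The paralogs Npas2 and Clock thus met the rule on opposite sides, and Arntl, which encodes Bmal1, overlapped, at 39.5, 23.9 and 49.2 against 30.4 and 20.9. The times of day at which the oocytes were collected are not given in the sources used here.

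Of 33 peroxisome genes 27 passed the filter, with 8 (29.6%) higher and 2 (7.41%) lower, against 14.2% and 6.51% of all genes. Pxmp4 and Pex16, which prompted the list, are among the 8. The median of the 27 was 1.29, but 0 in NMN 2-1. Pex16, which inserts peroxisomal membrane proteins, was at 65.8, 59.4 and 15.8 with no count in the young. Scp2, a sterol carrier, was at 40.5, 45.1 and 23.8 against 2.83 and 1.83. The summed level of the list was 1675, 1263 and 538 in the NMN oocytes and 519.8 and 463 in the young, so NMN 2-1 lay next to young 1.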
